A study of Mus musculus with 4 samples.

Results

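The genes described here are 10 components of the tight junction, namely the claudins Cldn2, Cldn3, Cldn4, Cldn7, Cldn12, Cldn15 and Cldn23, the membrane proteins Ocln and F11r, and the scaffold Tjp1. They were chosen by gene symbol, and all 10 were found among the 52459 genes counted. All 10 were also among the 13692 genes that passed the filter on low counts (at least 1 pool with over 5 reads and over 1 CPM, where CPM is the count scaled to a common library total). Cldn4 passed only through the young pools. They were measured in intestinal stem cells (ISCs) of wild-type (WT) C57/Bl6 mice, female per the paper, aged 2 months (young, ISC_2mth) or 22 months (old, ISC_22mth). The study asked how ISCs change with age, and each age was represented by 2 pools, each made from the cells of 5 animals. ISCs were sorted from small intestinal crypts with the SM6 antibody panel (CD31- and CD45-, CD24 medium, CD166+, CD44 high, GRP78 low, EPHB2 high and EPCAM+), so no reporter allele was involved. RNA was amplified along the whole transcript and read counts per gene were deposited.

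Tight junctions are the most apical contacts between epithelial cells, where they seal the space between neighbouring cells and restrict what passes through it. Claudins are small proteins that cross the membrane 4 times and form the strands of the junction, some sealing it and others opening channels for ions and water. Occludin and the junctional adhesion molecules join the claudins in the membrane, and the zonula occludens proteins tie them to the actin cytoskeleton. In the intestine the mix of claudins differs along the crypt to villus axis and along the length of the gut.

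Total counts per library ran from 11662654 to 15975698. The mitochondrial genome supplied 62.6% and 65.7% of them in the young pools and 73.8% and 72.9% in the old pools, and 3852178 to 4593004 counts per library were left for all other genes. The 10 tight junction genes together had 9644 and 9560 reads in the young pools and 8760 and 8973 in the old pools. The 5 ISC markers (Lgr5, Ascl2, Olfm4, Smoc2 and Sox9) were present in every pool, with a summed level between 1550 and 1790 normalized CPM. Most of that sum was Olfm4 (1302 and 1230 in the young pools, 1111 and 1289 in the old). While 0 of the 5 passed the test between ages, Lgr5 and Sox9 had both old pools below both young pools. Ascl2 had both above. These patterns were shown by 23.6% and 24.0% of all genes tested. Normalized CPM here means CPM after TMM scaling. Old and young pools were tested against each other by the quasi-likelihood method of edgeR across all genes kept, with a false discovery rate (FDR) under 0.05 as the threshold. The endothelial claudin Cldn5 and the endothelial genes Cdh5 and Kdr had 0 reads in all 4 pools. The 9 endothelial and stromal markers together had 4 and 2 reads in the young pools and 10 and 12 in the old pools. Among them, Acta2 had 1 and 2 against 8 and 5 reads. The 9 leukocyte markers summed to 6 and 4 reads in the young pools and 19 and 7 in the old pools. Cd79a, Itgax and Adgre1 were at 0 in every pool, while Cd8a had 1 and 0 against 4 and 3 reads. Both sums were thus higher in the old pools, at low counts, and none of these markers passed the filter. In bulk samples such as these, fewer cells of a type and less RNA per cell cannot be told apart.

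Of the 10 genes, only Cldn4 passed the test, and it fell with age, although it entered the test only through the young pools, where it was higher. With at least 10 counts required in every pool Cldn4 was not tested. Cldn4, a claudin that seals the junction and is one of the intestinal receptors of a clostridial enterotoxin, had 62 and 29 reads in the young pools and 4 and 6 in the old pools. The old pools were the lower pair without overlap, and the young pools themselves differed. The remaining 9 genes had log2 fold changes, old minus young, between -0.14 and 0.30, and none of them passed the threshold. At this threshold 2.26% of all genes tested were called in either direction (309 genes), 0.628% were lower in old ISCs (86 genes) and 1.63% were higher (223 genes). The median log2 fold change was 0.08 over the 10 genes, and also 0.08 over the 9 without Cldn4, against -0.005 over all genes tested.

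**Figure D1:**
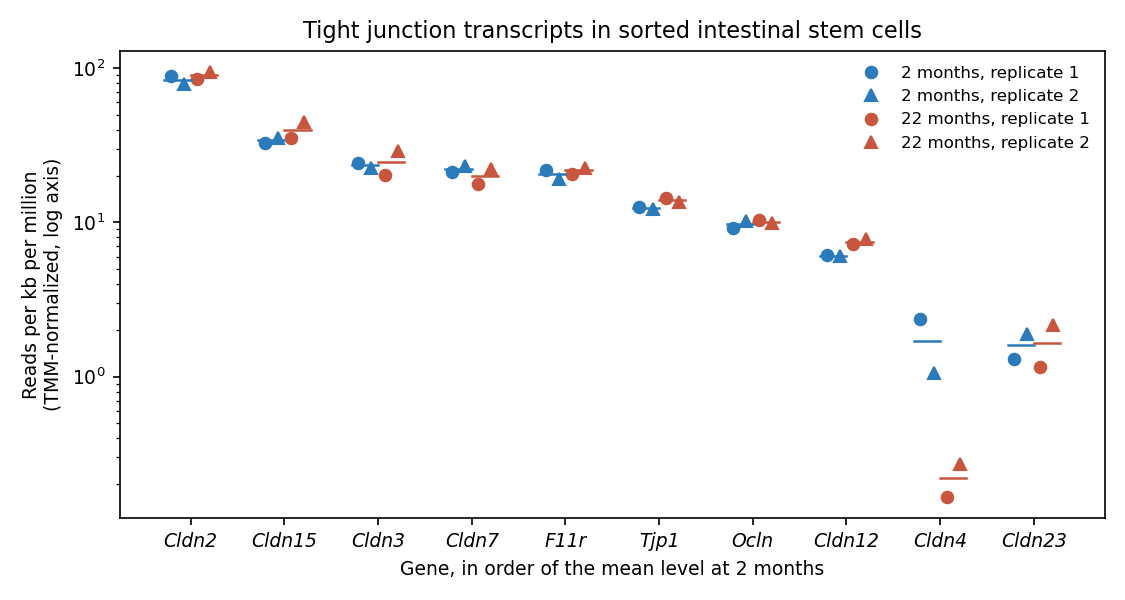
Level of each of the 10 genes in each pool, as normalized CPM per kb of exon (RPKM), on a log axis, with the genes in order of the young mean. Circles are replicate 1 and triangles replicate 2, blue is 2 months and red 22 months, and short lines are the means of 2 pools. Cldn4 is the gene whose old pools lie far below its young pools.

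Because longer transcripts collect more reads, levels of different genes were compared per kb of exon (normalized CPM divided by exon length in kb, RPKM). Cldn2 was the most abundant in young ISCs at 84.0 RPKM ± 6.73 (SD, n = 2), followed by Cldn15 at 34.1 ± 1.80. Cldn3 at 23.4 ± 1.36, Cldn7 at 22.2 ± 1.53 and F11r at 20.6 ± 1.97 came next. The pools of Cldn3 and Cldn7 overlapped, as did those of Cldn7 and F11r. Below them came Tjp1 at 12.5 ± 0.233, Ocln at 9.73 ± 0.698 and Cldn12 at 6.09 ± 0.0608, whose pools did not overlap. Cldn4 at 1.71 ± 0.917 and Cldn23 at 1.60 ± 0.419 were the lowest, with overlapping pools.

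In old ISCs Cldn2 at 89.9 RPKM ± 6.51 (SD, n = 2) and Cldn15 at 40.0 ± 6.97 again led the order. Cldn3 at 24.7 ± 6.15, F11r at 21.7 ± 1.40 and Cldn7 at 20.1 ± 3.18 followed with overlapping pools, then Tjp1 at 14.0 ± 0.636, Ocln at 10.1 ± 0.393 and Cldn12 at 7.51 ± 0.446. Cldn23 at 1.66 ± 0.725 was next to last. Cldn4 was last at 0.219 ± 0.0735, and its pools no longer overlapped those of Cldn23.

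Cldn4 (chromosome 5, 134945119 to 134946934, minus strand, GRCm38) is a gene of 1 exon. Its normalized level was 4.28 and 1.92 CPM in the young pools and 0.303 and 0.491 CPM in the old pools. The means were 3.10 CPM ± 1.67 (SD, n = 2) and 0.397 CPM ± 0.133, and the fitted old level was 0.130 times the young one (95% interval 0.053 to 0.317), or 7.69-fold lower. On the log2 scale Cldn4 fell by 2.94 (SE 0.615, 95% interval -4.23 to -1.66, unadjusted p = 0.000131, FDR = 0.0156).

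The depth behind Cldn4 was small. Exact 95% Poisson intervals were 47.5 to 79.5 and 19.4 to 41.6 reads in the young pools and 1.09 to 10.2 and 2.20 to 13.1 reads in the old pools, and they cover counting error only, since copies of 1 molecule made by the amplification cannot be recognised. The intervals of the old pools did not overlap those of the young pools, but the 2 young intervals did not overlap each other either. Such a gap therefore also occurred between pools of the same age. The intervals are on raw reads, without scaling between libraries. Limma voom with sample quality weights, the kind of test named in the methods of the paper, did not call Cldn4. Its log2 fold change there was -2.77 (FDR = 0.120), and voom without weights gave the same fold and an FDR of 0.104, so the call was lost and the fold was close to the one reported. Over the 12 alternatives that kept the gene the FDR ranged from 3.09e-05 to 0.120. It was also lost without ISC_2mth replicate 1, the pool with 62 reads (log2 fold change -2.26, FDR = 0.331).

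**Figure D2:**
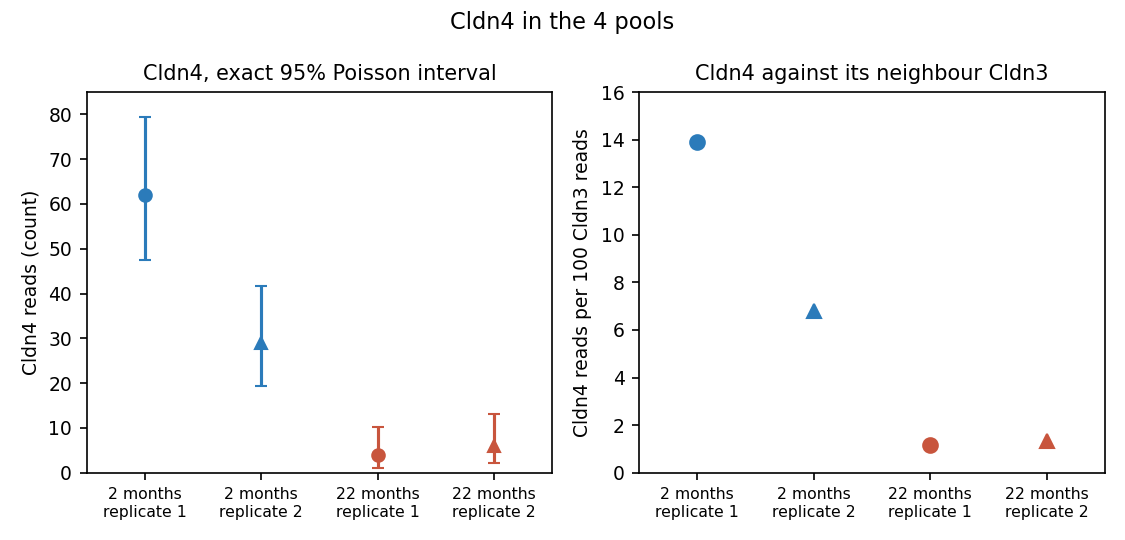
Left, Cldn4 reads (counts) in each of the 4 pools with exact 95% Poisson intervals, which cover counting error only. Right, Cldn4 reads per 100 Cldn3 reads in the same pools, where both young pools (13.9 and 6.79) lie above both old pools (1.18 and 1.34).

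Cldn3, the neighbour of Cldn4, did not pass the test. Cldn3 (chromosome 5, 134986214 to 134987472, plus strand), also a sealing claudin of 1 exon and a receptor of the same toxin, lies 39279 bases from Cldn4. It had 445 and 427 reads in the young pools and 339 and 447 in the old pools, or 30.7, 28.3, 25.6 and 36.6 normalized CPM, and the ages overlapped. Its log2 fold change was 0.08 (SE 0.165, 95% interval -0.27 to 0.42, FDR = 0.862). For every 100 reads of Cldn3 there were 13.9 and 6.79 reads of Cldn4 in the young pools and 1.18 and 1.34 in the old ones. This ratio within a library does not depend on how libraries are scaled, and its difference between ages was not tested. The annotation places 40 bases of Cldn3 exon over an exon of Wbscr25 on the opposite strand, and the strand setting of the counting is not given in the sources used here.

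The 250 bases before the annotated start of each of these neighbours are shown because one gene fell with age and the other did not pass the test. The sequences are from RefSeq (GRCm38.p6), written 5′ to 3′ on the strand of the gene, chr5:134946935-134947184 (minus strand) for Cldn4 and chr5:134985964-134986213 (plus strand) for Cldn3. Capitals mark matches to TGANTCA, the letters to which AP-1 factors such as Fos and Jun proteins bind. The pattern reads the same on both strands.
Cldn4: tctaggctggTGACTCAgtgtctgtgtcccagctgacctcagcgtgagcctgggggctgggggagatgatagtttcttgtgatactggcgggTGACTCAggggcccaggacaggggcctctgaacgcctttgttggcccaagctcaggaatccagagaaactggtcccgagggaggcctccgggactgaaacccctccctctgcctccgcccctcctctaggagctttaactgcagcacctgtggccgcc
Cldn3: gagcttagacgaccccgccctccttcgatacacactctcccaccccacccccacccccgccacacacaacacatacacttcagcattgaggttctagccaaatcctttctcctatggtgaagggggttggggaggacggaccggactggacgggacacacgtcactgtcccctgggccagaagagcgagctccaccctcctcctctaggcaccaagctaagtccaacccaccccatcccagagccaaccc
Cldn4 held 2 matches, which begin 240 and 158 bases before the start, and Cldn3 held none. The window of Amotl1, a junction gene that also fell with age, held none either. Windows were set by RefSeq starts, and some of these, including those of Amotl1, Cldn15 and Tjp1, lie inside the gene as GENCODE annotates it. Of the 9 members with a window, Cldn15 and F11r held 1 match each, and neither passed the test. Of 32851 windows of the same length in the whole table, 6.75% held at least 1 match and 0.338% held 2 or more (111 windows). The letters GCGNGGGCG, to which EGR factors bind, were found on either strand in Ocln and Tjp1 and in 4.70% of all windows, and TATAAA was found in Cldn2 and in 12.4% of all windows. The patterns were chosen with the results known, and a match describes the letters and not a bound site.

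The channel-forming claudins carried most of the claudin reads. Cldn2 (chromosome X, 139800828 to 139811386), which forms channels for small cations and water and is known from the crypt, had 4279 and 3978 reads in the young pools and 3748 and 3837 in the old pools. Its levels of 295, 264, 284 and 314 normalized CPM, in that order of pools as in the other lists of 4 values, overlapped between ages, and the log2 fold change was 0.10 (SE 0.113, 95% interval -0.14 to 0.34, FDR = 0.715). Cldn15 (chromosome 5, 136966616 to 136975858), a sodium channel of the small intestine, had 1011, 1134, 984 and 1165 reads. At 69.8, 75.1, 74.5 and 95.4 normalized CPM, its highest pool was ISC_22mth replicate 2, and 1 old pool lay between the young pools. The log2 fold change of Cldn15 was 0.23 (SE 0.135, 95% interval -0.05 to 0.51, FDR = 0.414). There were 423 and 351 reads of Cldn2 per 100 reads of Cldn15 in the young pools and 381 and 329 in the old ones, which overlapped.

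Cldn7 (chromosome 11, 69964779 to 69967885), which also sits on the lateral membrane in complex with EPCAM, had 595 and 683 reads in the young pools and 459 and 531 in the old pools. At 41.1, 45.3, 34.7 and 43.5 normalized CPM the ages overlapped, and the log2 fold change was -0.14 (SE 0.144, 95% interval -0.45 to 0.16, FDR = 0.663). Per 100 reads of Epcam there were 8.70 and 9.13 reads of Cldn7 in the young pools and 7.35 and 8.14 in the old ones, so this ratio was lower in both old pools, and it was not tested.

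Cldn12 (chromosome 5, 5489537 to 5514958), a claudin that lacks the usual tail motif for binding scaffolds, had 376, 386, 402 and 404 reads. Its levels were 25.9 and 25.6 normalized CPM in young pools and 30.4 and 33.1 in old pools, so the old pools were the higher pair without overlap. The log2 fold change was 0.30 (SE 0.145, 95% interval -0.001 to 0.60, unadjusted p = 0.051, FDR = 0.299), and it did not pass the threshold. Cldn23 (chromosome 8, 35824712 to 35826559), the least abundant claudin of the 10 beside Cldn4, had 35, 53, 28 and 49 reads. Its replicates differed more than the ages did, and its log2 fold change of 0.04 has a wide interval (SE 0.394, 95% interval -0.78 to 0.87, FDR = 0.970), so a change within that interval was not detectable at this depth.

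Within each pool, the share of each claudin among all claudin reads per kb gives the make-up without any scaling between libraries. Cldn2 took 49.9% and 46.3% in the young pools and 50.3% and 46.5% in the old ones. Cldn15 took between 18.5% and 22.1%, Cldn3 between 12.0% and 14.3%, and Cldn7 between 10.5% and 13.6% over the 4 pools. Cldn12 took 3.45% and 3.54% in the young pools and 4.24% and 3.85% in the old ones. Cldn4 took 1.32% and 0.618% in the young pools and 0.0983% and 0.133% in the old ones, while Cldn23 took between 0.676% and 1.11%.

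**Figure D3:**
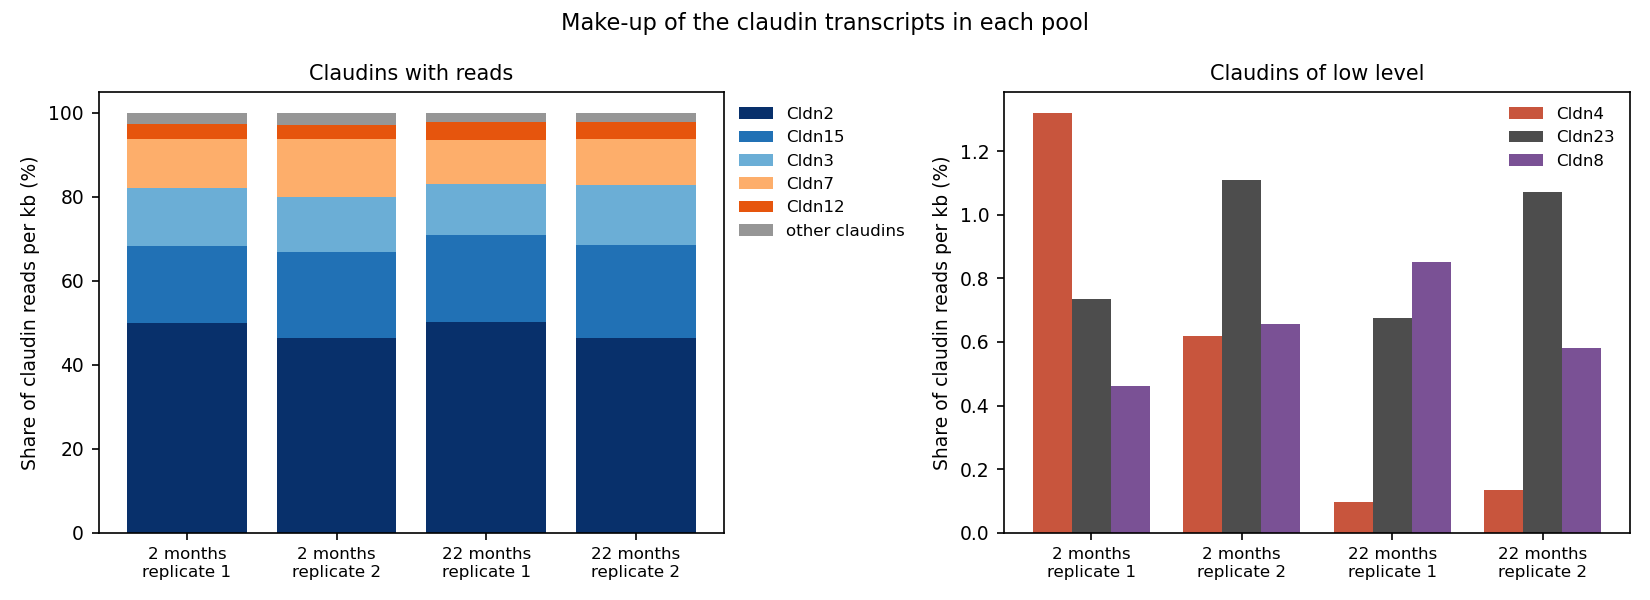
Share of claudin reads per kb of exon (%) in each of the 4 pools, stacked for the 5 most abundant claudins on the left and side by side for Cldn4, Cldn23 and Cldn8 on the right. Cldn2 takes between 46.3% and 50.3% in every pool, and Cldn4 is above 0.6% only in the young pools.

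Among the membrane and scaffold partners, Tjp1 (ZO-1, chromosome 7, 65296165 to 65527781), the scaffold that binds claudin tails and actin, had 1429 and 1449 reads in the young pools and 1486 and 1288 in the old pools. After scaling, the old pools (112 and 106 normalized CPM) lay above the young pools (98.6 and 96.0), with a log2 fold change of 0.16 (SE 0.118, 95% interval -0.08 to 0.41, FDR = 0.519). Ocln (occludin, chromosome 13, 100496507 to 100552718) had 565, 651, 581 and 508 reads, or 39.0, 43.1, 44.0 and 41.6 normalized CPM, and the ages overlapped. Its log2 fold change was 0.06 (SE 0.135, 95% interval -0.22 to 0.34, FDR = 0.869). There were 39.5 and 44.9 reads of Ocln per 100 reads of Tjp1 in the young pools and 39.1 and 39.4 in the old ones. F11r (JAM-A, chromosome 1, 171437535 to 171464603), an adhesion molecule of the immunoglobulin family, had 847, 770, 729 and 738 reads, and its log2 fold change was 0.08 (SE 0.131, 95% interval -0.20 to 0.35, FDR = 0.815). Its levels of 58.4, 51.0, 55.2 and 60.4 normalized CPM overlapped between ages.

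Of the 10 genes, Cldn12 and Tjp1 had both old pools above both young pools, a pattern shown by 24.0% of all genes tested, and Cldn4 had both old pools below, as did 23.6% of all genes tested. Neither count exceeds its background. The directions of the 8 genes with positive values depend on the scaling. With total counts as the library size, which brings in the mitochondrial reads and moves the median of all genes to -0.50, all 8 were negative, between -0.43 and -0.19, and thus still above that median, while Cldn4 was at -3.45. Under that scaling 5 of the 10 genes were called, all lower, as were 4650 of all genes, 4554 of them lower. An exact permutation test of 2 pools against 2 cannot go below p = 0.333 for any single gene, so no such test is given.

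**Figure D4:**
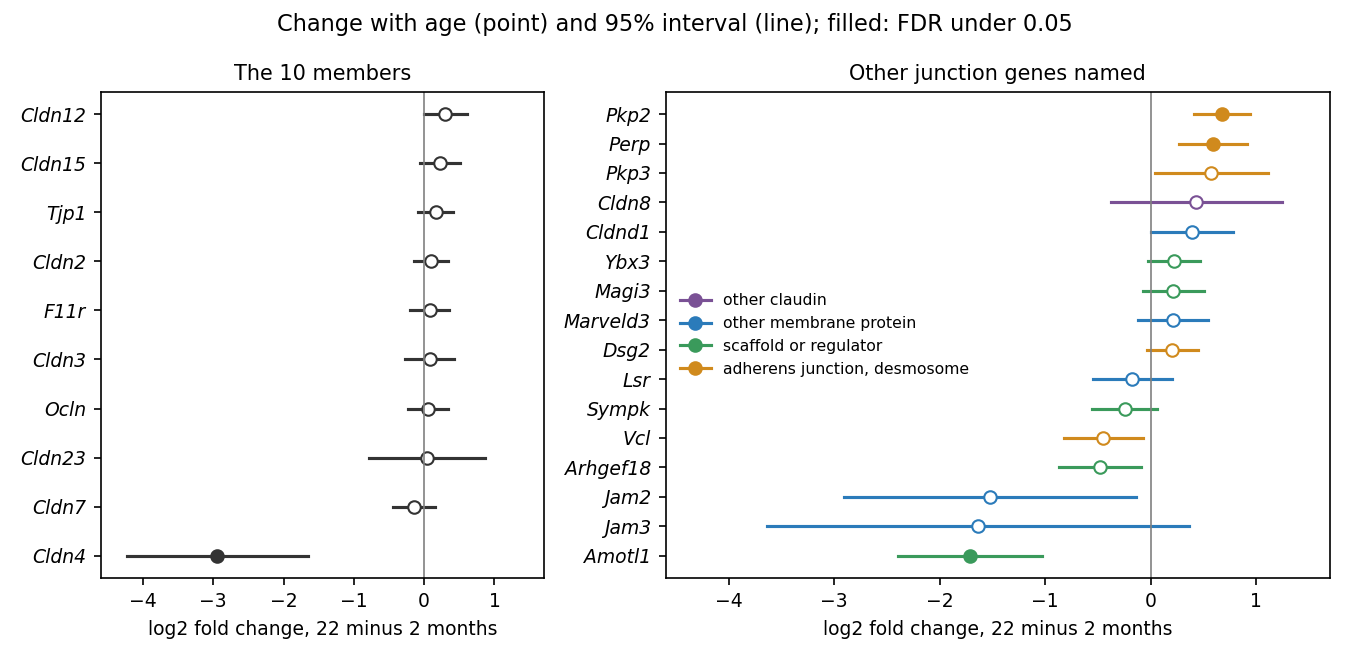
Log2 fold change (22 minus 2 months, horizontal axis) with its 95% interval, filled where the FDR was under 0.05. The 10 genes are on the left and other junction genes named in the text on the right. The right panel leaves out Amot, Amotl2, Tjp3, Cdh1 and Epcam. Cldn4 is the only filled point on the left, and Amotl1, Pkp2 and Perp are filled on the right.

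The wider junction was examined with lists of its known components. Of 65 further claudins and tight junction genes listed, 63 were in the file and 33 were tested, of which 0 rose and 1 fell. Over all genes tested 1.63% rose and 0.628% fell, and 1 gene among 33 is too few to set against these shares. The median log2 fold change was -0.05 over the 33, against -0.005 over all genes tested. Of the 28 further claudins listed, 26 were in the file and 5 of these had any reads. Of these only Cldn8, a sealing claudin, passed the filter, with 28, 40, 45 and 34 reads and a log2 fold change of 0.43 (SE 0.387, FDR = 0.613). None of the 9 further membrane proteins tested passed the threshold. Jam2 and Jam3, relatives of F11r, had 22 and 29 against 6 and 9 reads, and 9 and 17 against 3 and 4 reads, with log2 fold changes of -1.52 (FDR = 0.248) and -1.63 (FDR = 0.410), and both genes passed the filter only through the young pools. For Jam3, 29.3% of its 50-base stretches also occur in transcripts of other genes, so its counts are uncertain, as are those of Lsr (31.5%). The angulin Lsr, a protein of contacts between 3 cells, was at -0.17 (FDR = 0.677), Marveld3, a relative of occludin, at 0.21 (FDR = 0.534), and Cldnd1 at 0.40 (FDR = 0.287).

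Among 23 scaffolds and regulators tested, Amotl1, an angiomotin family protein that links tight junctions to Hippo signalling, was the 1 that passed. It had 94 and 100 reads in the young pools and 33 and 18 in the old pools, with means of 6.56 CPM ± 0.0998 (SD, n = 2) and 1.99 CPM ± 0.723. Amotl1 fell by 1.71 on the log2 scale (SE 0.328, 95% interval -2.40 to -1.03, FDR = 0.00942), and it was called under all 13 alternatives and without each pool in turn. Its relatives Amot and Amotl2 were at -0.06 (FDR = 0.862) and -0.68 (FDR = 0.619), which did not pass. Amotl2, with 25 and 20 against 10 and 14 reads, passed the filter only through the young pools. Arhgef18 was at -0.48 (FDR = 0.195), Sympk at -0.25 (FDR = 0.426), Ybx3 at 0.23 (FDR = 0.344) and Magi3 at 0.22 (FDR = 0.454). The zonula occludens protein Tjp3, at -0.02 (FDR = 0.957), did not pass either.

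Of 17 adherens junction and desmosome genes, 2 rose and 0 fell, with a median log2 fold change of 0.06. Over all genes tested 1.63% rose and 0.628% fell, with a median of -0.005. With total counts as the library size 0 of the 17 rose and 12 fell, neither of the 2 among them. Under that scaling 96 of all 13692 genes tested rose and 4554 fell. The median was then -0.43 over the 17 and -0.50 over all genes. Pkp2, a desmosomal plaque protein, had 642, 734, 973 and 920 reads and rose by 0.68 on the log2 scale (SE 0.127, FDR = 0.00752), though not past the threshold with total counts (0.19, FDR = 0.310) or without ISC_2mth replicate 1 (0.62, FDR = 0.0751). Perp, a desmosomal membrane protein, had 401, 558, 697 and 550 reads and rose by 0.60 (SE 0.154, FDR = 0.0472). It was called under 7 of 13 alternatives. Where the call was lost, its log2 fold change was 0.593 with DESeq2, 0.591 with filterByExpr and 0.575 with at least 10 counts in every pool. It was 0.558 with the upper quartile, 0.462 with GC and length offsets and 0.112 with total counts. The call was also lost without ISC_2mth replicate 1 (0.405) or ISC_22mth replicate 1 (0.478). Cdh1 (E-cadherin) was at -0.02 (FDR = 0.954) and Epcam at 0.06 (FDR = 0.840), while Vcl at -0.45 (FDR = 0.204, with 25.1% of its 50-base stretches shared with other genes), Pkp3 at 0.58 (FDR = 0.261) and Dsg2 at 0.21 (FDR = 0.372) did not pass.

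The summed level of 10 enterocyte markers was 583 and 704 normalized CPM in young pools and 1160 and 1030 in old pools. Of the 10, 3 rose (Fabp1, Sis and Fabp2), where 1.63% of all genes tested rose. The 13 secretory markers, of which 12 were tested, summed to 2270 and 2710 in young pools and 3770 and 2320 in old pools, which overlapped. Of the 12, 3 rose (Defa17, Defa24 and Dclk1), beside the same 1.63% of all genes tested. Dclk1 (4 and 4 against 42 and 19 reads) passed the filter only through the old pools. The goblet cell genes Muc2, Tff3, Fcgbp and Clca1 had log2 fold changes between -0.04 and 0.11 and did not pass. The defensins Defa17 and Defa24 belong to a family of near-identical genes, and their counts are uncertain. ISC_22mth replicate 1 stood apart for the Paneth cell gene Lyz1, with 9910 reads against 4509 and 3421 in the young pools and 2485 in the other old pool. ISC_2mth replicate 1 stood apart for the enteroendocrine gene Chgb, with 313 reads against 1654 in the other young pool and 1198 and 764 in the old pools. Without ISC_22mth replicate 1 Cldn4 was at -2.63 (FDR = 0.00761), and without ISC_2mth replicate 1 it was at -2.26 (FDR = 0.331). The part of these cells and of the mitochondrial share in the fall of Cldn4 and Amotl1 was not tested.

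**Figure D5:**
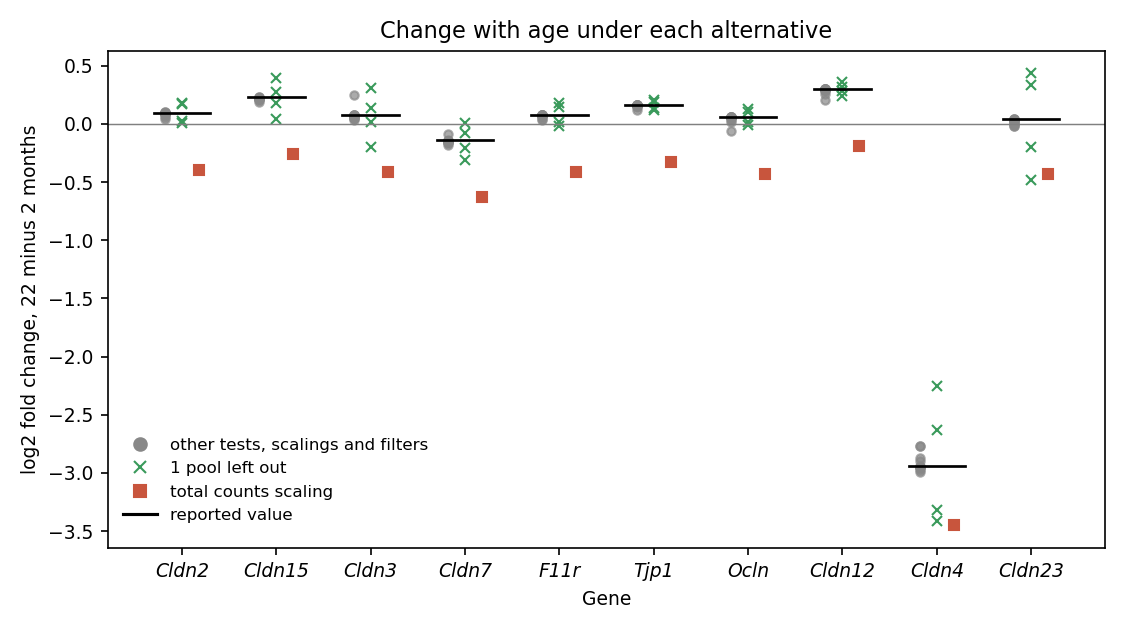
Log2 fold change (22 minus 2 months, vertical axis) of each of the 10 genes under the reported fit (black line), other tests, scalings and filters (grey), with 1 pool left out (green crosses) and with total counts as library size (red squares). Cldn4 lies between -3.45 and -2.26 in every setting that kept it, far from the other 9 genes.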

How the data were processed

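Per the labels and the paper, RNA of sorted ISCs was amplified by SPIA and sequenced as single-end reads in 4 libraries, 2 per age, and pools of equal number in both ages hold different animals. The authors used Trimmomatic 0.30 for trimming, STAR 2.4.2a for alignment to GRCm38 and featureCounts for counting in exons of GENCODE vM15 genes, and the deposited values are raw read counts. The treatment of reads with several alignments is not given in the sources used here.

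The filter required over 5 reads and over 1 CPM in 1 pool or more, which 13692 of 52459 genes met. Ages were compared in R 4.3.3 with edgeR 4.0.16 (TMM, glmQLFit and glmQLFTest without covariates), with p-values adjusted by Benjamini-Hochberg across these genes and a threshold of FDR 0.05. Standard errors came from the log2 fold change and F. Alternatives were the likelihood ratio test, limma 3.58.1 voom, DESeq2 1.42.0, other scalings and filters, the replicate number as a block, offsets for GC content and length (lowess span 0.3, with values for 96.7% of genes) and each pool left out, where the lone pool was assumed to vary like the others. The limit set by 3 counts was 0.199 to 0.246 CPM. Replicates differed beyond counting noise (chi-square per gene 9.42 in young and 7.11 in old pools).

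The 10 members and all lists were chosen with earlier results of these data known. Beside the members, the genes named are those called, the 5 of lowest p in each junction list and further claudins that passed the filter. Marker genes are named to describe the cells in the pools, and a link of their levels to a member was not tested. Amot, Amotl2, Tjp3, Cdh1 and Epcam were added after their values were seen. No genes are named by likeness of pattern, since 4 pools in 2 groups cannot rank likeness apart from age. Positions and exon lengths are from GENCODE vM21 of GRCm38, matched by symbol (47976 of 52459 genes), so levels per kb divide counts on vM15 exons by vM21 exon lengths.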

Additional observations from a re-analysis of the deposited data

How the results depend on the processing

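The number of the 10 tight junction genes called was 1 as reported, 0 with voom with or without quality weights, 0 with at least 10 counts in every pool (which removes Cldn4), 5 with total counts (all lower), and between 0 and 1 with 1 pool left out, the 0 being without ISC_2mth replicate 1. Of the further tight junction genes 1 was called as reported, 15 with total counts (all lower) and 1 with any pool left out. Of the adherens junction and desmosome genes 2 were called as reported, 1 with DESeq2, the upper quartile, filterByExpr, at least 10 counts in every pool or GC and length offsets, 12 with total counts (all lower, with 0 of the 2 among them), and between 0 and 2 with 1 pool left out. Over all genes, 309 were called as reported, 611 by the likelihood ratio test, 197 by DESeq2, 554 without a filter, 177 with GC and length offsets, 4650 with total counts (96 higher and 4554 lower, against 223 and 86 as reported), and between 147 and 691 with 1 pool left out. With the replicate number as a block 623 genes and again 1 of the 10 members were called, but same-numbered pools did not deviate together (correlation -0.00588), so the numbers do not pair the pools. With total counts, where the median of all genes was -0.496, signs turned for Cldn2 (-0.398), Cldn3 (-0.414), Cldn12 (-0.190), Cldn15 (-0.258), Cldn23 (-0.434), Ocln (-0.430), Tjp1 (-0.331), F11r (-0.417), Cldn8 (-0.052), Cldnd1 (-0.090), Marveld3 (-0.270), Ybx3 (-0.259), Magi3 (-0.273) and Dsg2 (-0.283). Signs also turned for Cldn23 with voom (-0.019 with quality weights, -0.018 without) and for Cldn23 (-0.001) and Ocln (-0.060) with GC and length offsets, all values near 0. With 1 pool left out, log2 fold changes ranged from -0.201 to 0.312 for Cldn3, -0.313 to 0.011 for Cldn7, -0.484 to 0.434 for Cldn23, -0.010 to 0.128 for Ocln and -0.022 to 0.181 for F11r. The cause of these differences was not tested. Depth limits Cldn4 and Cldn23, which had at most 62 and 53 reads in a pool.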
